A study of Drosophila melanogaster with 29 samples.

Results

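HMR (Hybrid male rescue) is a chromatin protein of Drosophila melanogaster that is known for the lethality of hybrids with a sibling species and for its presence at centromeric heterochromatin. The regions described here are HMR binding sites outside heterochromatin that lie at the promoter of a gene. Overlapping peaks of the 3 HMR lists (1 bp or more) were joined into 1 site, and sites held by at least 2 lists were kept. Of these 794 sites, 229 were annotated by the study as promoter-TSS (HOMER's label for a site at a transcription start) and lay on the euchromatic part of the arms 2L, 2R, 3L, 3R and X. Chromosome 4, the scaffolds of heterochromatin and of unplaced sequence, the 2 Mb of each large arm next to the centromere and the cytological region 31 of 2L were left out. The other sites were 383 euchromatic sites away from promoters, 142 heterochromatic promoter sites and 40 other heterochromatic sites. Heterochromatic here means any site in the places left out, region 31 among them. It was set by position alone and not by a measured mark of heterochromatin.

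HMR was mapped by ChIP-Seq in untreated S2 cells, a single cultured line of embryonic origin. ChIP-Seq pulls down the DNA attached to a protein with an antibody and compares the sequenced fragments with the input chromatin. The 5 deposited peak lists come from 3 biological replicates with an anti-HMR antibody and from 2 replicates of control IgG, here an anti-FLAG antibody against an epitope that wild type cells lack. The RNAi-treated cells and the other antibodies of the series were not analysed here.

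Each list gives the position and the order of its peaks, and the score column holds 1 for every peak, so no tag count or fold enrichment belongs to a single site. The HMR lists held 1151, 903 and 781 peaks and the control IgG lists 22 and 242. The libraries held between 7190138 and 16782808 tags, and a peak needed 30, 41 and 41 tags in HMR replicates 1, 2 and 3. The fewest tags belonged to HMR replicate 1, which held the most peaks. A site missing from a list may lie just under the tag limit of that library. It may also have missed another limit of the caller, such as the 4 fold over input that every list required. The measure used below is the relative list position, which runs from 0 for the first peak of a list to 1 for the last.

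A promoter is the stretch of DNA around the start of a gene where RNA polymerase and its partners assemble. Insulators are DNA elements bound by zinc-finger proteins such as Su(Hw) and BEAF-32, often together with CP190 and Mod(mdg4), and they separate neighbouring regulatory domains. Many insulator sites of the fly lie close to promoters of housekeeping genes. HP1a is the main structural protein of heterochromatin and a partner of HMR.

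Most euchromatic promoter sites were found by HMR replicates 1 and 3, and fewer by replicate 2. Replicate 1 held 217 of the 229 sites (94.8%, 95% Wilson interval 91.1% to 97.0%). Replicate 2 held 170 (74.2%, 68.2% to 79.5%) and replicate 3 held 206 (90.0%, 85.4% to 93.2%). All 3 lists held 135 sites, 59 were held by replicates 1 and 3 only, 23 by replicates 1 and 2 only and 12 by replicates 2 and 3 only. The number of sites depends most on replicate 1, since 147 sites remain when that replicate is left out. The sites were narrow, between 201 and 328 bp with a median of 226 bp, where a single peak of the caller is 201 bp.

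A smaller share of euchromatic than of heterochromatic promoter sites was held by all 3 lists, and this gap lay mainly in replicate 2. The share held by all 3 lists was 59.0% (52.5% to 65.1%) at euchromatic promoters. At the other euchromatic sites it was 62.7% (57.7% to 67.4%), a difference of -3.71 percentage points that did not pass the test (Fisher's exact test, two-sided, p = 0.391). At heterochromatic promoters it was 84.5% (77.7% to 89.5%), a difference of -25.6 percentage points (Fisher's exact test, two-sided, p = 1.61e-07). Replicate 2 held 74.2% of the euchromatic and 97.9% of the heterochromatic promoter sites. In replicate 1 the shares were 94.8% and 99.3%, and in replicate 3 they ran the other way, 90.0% and 87.3%. When only the upper part of each list was taken (relative position up to 0.5), the difference was -10.5 percentage points and did not pass (Fisher's exact test, two-sided, p = 0.111). The intervals and tests here count each site as independent, and counting error is all that they cover. The sites compared had all been chosen by presence in at least 2 of these same lists. The p-values therefore do not measure the spread between replicates, and the difference is a description of these 3 lists.

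**Figure D1:**
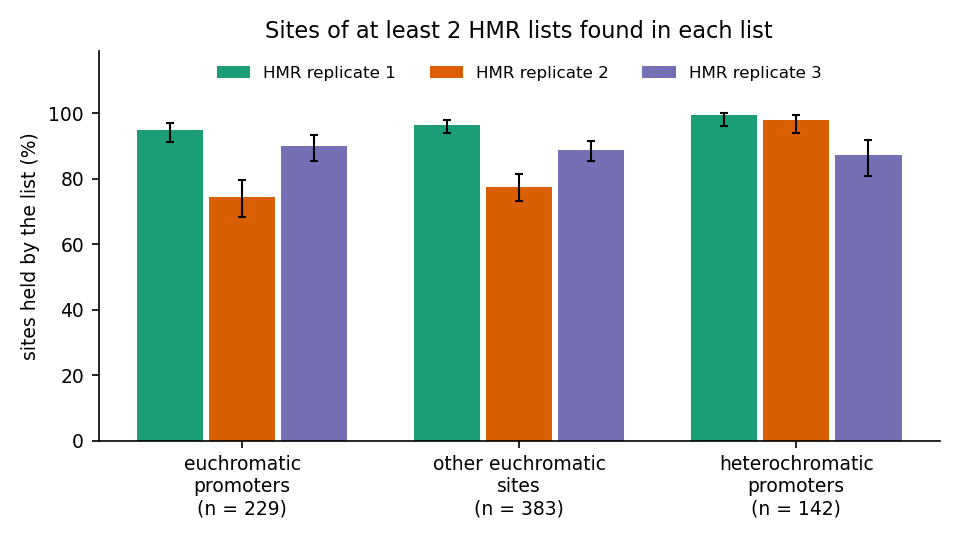
Share of HMR sites, in percent, that each of the 3 HMR lists held, for euchromatic promoters (n = 229), other euchromatic sites (n = 383) and heterochromatic promoters (n = 142); bars are shares and whiskers 95% Wilson intervals. Replicate 2 held 74.2% of the euchromatic promoter sites and 97.9% of the heterochromatic promoter sites.

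In the order of the lists, euchromatic promoters stood behind heterochromatic ones. Order and presence come from the same peak calling, so this is no separate support for the difference in presence. Euchromatic promoter sites had a median relative position of 0.41 in replicate 1, 0.42 in replicate 2 and 0.52 in replicate 3. The other euchromatic sites had medians of 0.41, 0.45 and 0.48, and the difference of the medians was 0.0015 ± 0.030 (mean ± SD, n = 3 lists), smaller than its spread between lists (two-sided exact sign-flip permutation test, p = 0.75). Heterochromatic promoter sites stood nearer the top, with medians of 0.23, 0.23 and 0.33. Here the difference was 0.19 ± 0.0053 (mean ± SD, n = 3 lists), with euchromatic promoters lower down in 3 of 3 lists. The exact sign-flip test gave p = 0.25, the smallest that 3 lists allow.

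**Figure D2:**
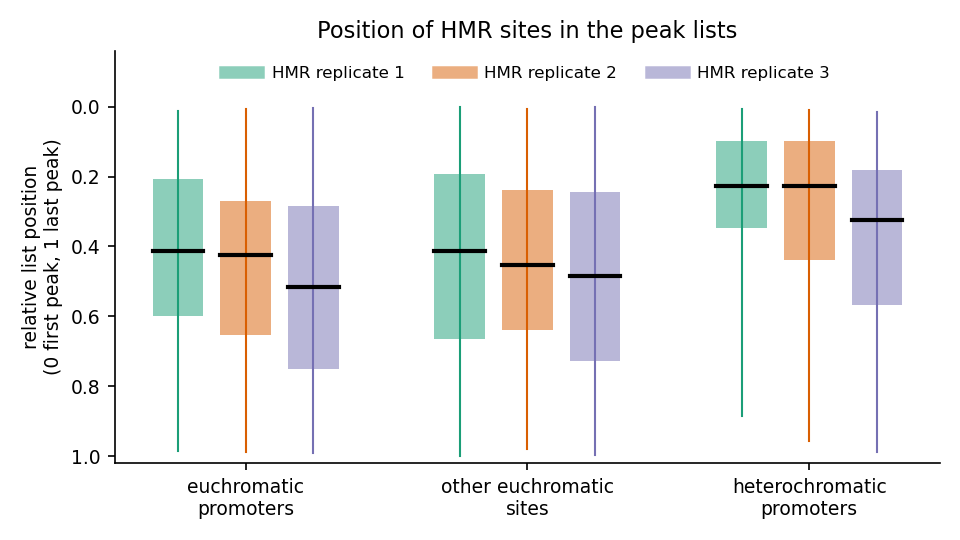
Relative list position of HMR sites (vertical axis, 0 is the first peak and 1 the last) in the 3 HMR lists, for euchromatic promoters, other euchromatic sites and heterochromatic promoters; thick lines are medians, boxes the middle 50% of sites and thin lines the full range. In every list the median of heterochromatic promoters (0.23, 0.23 and 0.33) stands above that of euchromatic promoters (0.41, 0.42 and 0.52).

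The lists placed individual promoter sites in a like order. Spearman's rho between the positions was 0.704 over the 158 sites that replicates 1 and 2 share. It was 0.827 over the 194 sites of replicates 1 and 3, and 0.803 over the 147 sites of replicates 2 and 3. These values describe sites measured in the same cell line with the same antibody. The peak centres of a site differed between lists by a median of 17, 18.5 and 14 bp in the same order of pairs. Sites found by 2 lists only stood lower than those found by all 3, with medians of 0.60 against 0.28 in replicate 1, 0.68 against 0.36 in replicate 2 and 0.76 against 0.42 in replicate 3. Presence in a list and place in it come from the same peak calling, so these medians are a description and no separate support.

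The euchromatic promoter site nearest the top of the lists was that of kay, which encodes the Fos subunit of the transcription factor AP-1. It lies on 3R from 25598432 to 25598674 (dm3, as all positions here) at the start of NM_001032407 and was peak 16 of replicate 1, peak 8 of replicate 2 and peak 15 of replicate 3. The site of Polr2I, a subunit of RNA polymerase II, followed on 3R from 10133758 to 10133985 and was peak 19, 33 and 5. The gene next to Polr2I in the Release 6 annotation is su(Hw), which encodes the insulator protein itself. The site of Sqor, a mitochondrial enzyme that oxidises sulfide, lies on 3L from 4239381 to 4239638 and was peak 37, 26 and 9. These 3 sites thus stood within the first 37 peaks of every list.

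The next sites held by all 3 lists belonged to genes of varied roles. CG13707 (3L from 4840654 to 4840862) was peak 40, 49 and 11, and RpL23A, a protein of the large ribosomal subunit (3L from 1668602 to 1668835), was peak 36, 62 and 28. The site of sd, the DNA-binding partner of Yorkie in the Hippo pathway, was peak 42, 20 and 67 on X from 15706076 to 15706306. The site of eEF1alpha1, the elongation factor that brings aminoacyl-tRNA to the ribosome, was peak 41, 61 and 39 on 2R from 7779422 to 7779653. RhoGEF3 had its first site on 3L from 291837 to 292057, at peak 32, 84 and 27. Each of these sites kept a relative position under 0.1 in all 3 lists.

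Another 4 sites completed the 12 with the lowest mean position. Hers, which encodes a repressor of the histone genes, was peak 89, 16 and 54 on X from 19781047 to 19781279. Sec61gamma, a subunit of the channel that takes proteins into the endoplasmic reticulum, was peak 28, 97 and 55 on X from 19537256 to 19537490. CG11714 was peak 23, 135 and 43 on 3L from 11516478 to 11516685, and CG33307 was peak 91, 77 and 51 on 2L from 13842216 to 13842438. Replicate 2 placed CG11714 and Sec61gamma lower than the other replicates did, and placed Hers higher. Of the 12 sites, 11 belong to class 2 and that of eEF1alpha1 to class 1, the classes described below.

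**Figure D3:**
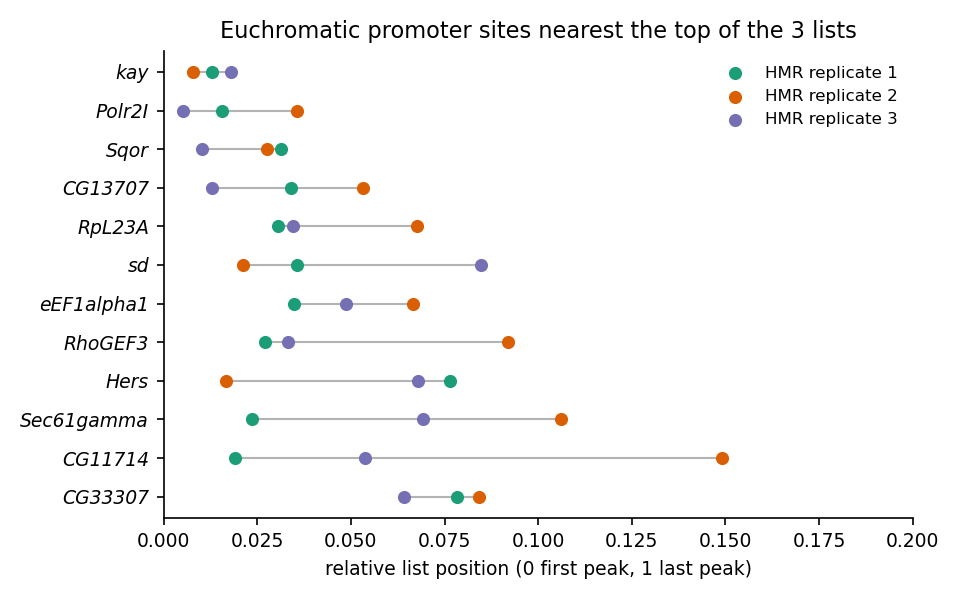
Relative list position (horizontal axis, 0 is the first peak and 1 the last) of the 12 euchromatic promoter sites with the lowest mean position, named by gene; each point is 1 HMR replicate and the grey line joins the lowest and highest. The site of kay lies between 0.0078 and 0.018 in the 3 lists, while that of CG11714 reaches 0.149 in replicate 2.

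The 229 sites carried the names of 227 transcripts, of which 222 were messenger RNAs and 7 non-coding RNAs counted by site. A gene symbol was found for 225 sites, and these name 221 genes. They make up 214 of 13962 protein-coding genes of the annotation (1.53%), which is the share against which the gene lists below are set. A list's count covers all its annotated genes, also those in heterochromatin. The lists were written by hand and leave genes out, so each count covers the listed genes only. No test was run on the lists.

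The insulator, heterochromatin and chromatin lists hold the proteins that insulators and chromatin are built from, and 2 of their genes had a site. Of 15 genes of insulator and architectural proteins, 1 had a site (6.67%), mod(mdg4), which encodes the BTB-domain partner of Su(Hw). Its site on 3R from 17190956 to 17191250 was peak 657, 575 and 532, in the lower part of each list. None of 25 genes for heterochromatin proteins and partners of HMR had one. Of that list 2 genes neighbour a site, since Su(var)2-HP2 lies next to Sec61beta (peak 192, 327 and 249) and cal1 next to cher (peak 723 and 480 of replicates 1 and 2). The share of all annotated genes that neighbour a site was not computed. These 2 genes, and su(Hw) named above, thus have no background share to be set against. Of 51 chromatin regulators, 1 had a site (1.96%), E(bx), a subunit of the NURF remodelling complex, which was peak 538 of replicate 1 and 610 of replicate 3.

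Among housekeeping lists, the cytoplasmic ribosomal proteins had 5 of 92 genes with a site (5.43%), and 3 of the 5 sites were in all lists. RpL23A is given above. RpS21 was peak 118, 216 and 44, and RpS16 was peak 237, 425 and 245. RpS3 was peak 247 and 333 and was missing from replicate 3, and RpL41 was peak 754 and 653 and was missing from replicate 2. Splicing and mRNA processing had 4 of 58 genes (6.90%), all of them in 3 lists. SC35 and B52, both SR proteins that guide splice site choice, were peak 208, 43 and 70 and peak 286, 328 and 363. Not1, the scaffold of the complex that shortens poly(A) tails, was peak 587, 275 and 244, and Sf3a1, a protein of the spliceosome, was peak 485, 184 and 516. SC35 thus stood nearest the top of these 4, in every list.

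The cytoskeleton list had 5 of 95 genes (5.26%), and each of the 5 sites was in all 3 lists. The actin nucleators spir and capu were peak 84, 224 and 83 and peak 498, 379 and 196. The Drosophila cofilin tsr was peak 301, 386 and 410, WASp, an activator of branched actin assembly, was peak 501, 416 and 416, and Eb1, which tracks growing microtubule ends, was peak 633, 186 and 379. Not listed were the kinesin-like gene nod (peak 516 and 632) and the filamin gene cher (peak 723 and 480). Both had a site held by replicates 1 and 2 only. The proteasome subunits Rpn8 (peak 567, 395 and 393) and Rpn9 (peak 348, 628 and 335) made 2 of 48 genes. Translation factors had 2 of 54, namely eEF1alpha1 and eIF4G2, a scaffold of translation initiation, which was peak 927 and 537 in replicates 1 and 2.

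The list of neuronal and ion channel genes had 3 of 358 (0.838%), beside 1.53% of all protein-coding genes. This gap was not tested and depends on which genes the list names. The 3 genes were Ih, a cation channel opened by hyperpolarisation, and SLO2, a potassium channel, both found in 2 lists, and ppk29, a DEG/ENaC channel subunit at peak 122, 85 and 87. The TRP channel gene nan also had a site (peak 548 and 696 in replicates 1 and 3) but is not among the listed genes. Cell cycle and replication genes had 2 of 85, the replicative helicase subunit dpa (peak 167, 72 and 144) and tefu, the ATM kinase (peak 748, 644 and 500). The list of patterning transcription factors had 2 of 83, sd and the GATA cofactor ush, and leaves out the homeobox gene ro (peak 401, 591 and 361). The ush site was peak 86 of replicate 1 and peak 91 of replicate 3 and was missing from replicate 2, so a high place in 2 lists did not ensure a peak in the other.

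The list of signalling pathway genes had 1 of 116, the BMP effector shn (peak 675, 413 and 387). It leaves out sd of the Hippo pathway, named above, and the Notch target gene E(spl)mbeta-HLH (peak 426, 157 and 316). RNA polymerase and general transcription factors had 1 of 88, Polr2I. Mitochondrial ribosomal proteins had 1 of 73, mRpL3 (peak 921, 843 and 724). The list of aminoacyl-tRNA synthetases had 1 of 33, ArgRS-m (peak 576 and 372 in replicates 1 and 3). It leaves out the synthetase gene beta-PheRS, which also had a site (peak 893 and 731 in replicates 1 and 2). None of the 42 genes on the DNA repair list had a site. That list leaves out the endonuclease gene Gen (peak 524, 712 and 498) and the ATM kinase gene tefu, which both act in DNA repair. Genes known by a CG number had 62 of 6106 (1.02%), 41 of them in all 3 lists, and non-coding RNA genes 7 of 3593, 5 of them in all 3 lists.

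Further sites of genes with known roles were picked after the gene names had been seen, and their values are a description. Among RNA factors, the splicing factor Slu7 was peak 185, 283 and 243 and the spliceosomal protein SmD1 was peak 530, 508 and 536. Among regulators of the cytoskeleton, Shrm was peak 99, 202 and 124 and the focal adhesion protein Pax was peak 137, 230 and 135. The nuclear receptor Hnf4 was peak 280, 209 and 370, and the ubiquitin conjugating enzyme ben was peak 148, 254 and 208. Outside the lists above, sites were also found at genes of chromatin proteins, the acetyltransferase enok (peak 278, 443 and 601) and the remodelling ATPase Chd3 (peak 932 and 767 in replicates 1 and 2).

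The study divided its HMR sites by HP1a signal beside them, class 1 lying next to HP1a and class 2 away from it. Of the euchromatic promoter sites, 224 were class 2 and 5 class 1 (2.18%, 95% Wilson interval 0.936% to 5.01%). Of the 5, 2 were in all 3 lists, namely eEF1alpha1 and the site of Ranbp16, a nuclear transport receptor, on X from 15828197 to 15828461 at peak 340, 417 and 405. The other site of Ranbp16, from 15827661 to 15827878, was peak 953 and 715 of replicates 1 and 2. The tetraspanin gene Tsp42Ed (2R from 2899548 to 2899748) was peak 669 and 609 and the receptor gene mthl1 (X from 16534785 to 16534988) peak 808 and 663, both in replicates 1 and 3. Apart from eEF1alpha1, the class 1 sites stood at relative positions between 0.29 and 0.85.

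Euchromatic promoter sites were spread over all 5 arms. There were 33 on 2L, 56 on 2R, 43 on 3L, 57 on 3R and 40 on X. Over the euchromatic spans this made 1.61, 2.93, 1.91, 2.21 and 1.97 sites per Mb, against 2.12 for all arms. The promoter share among euchromatic sites was 35.7% on X (40 of 112 sites, 27.5% to 44.9%) and 37.8% on the autosome arms (189 of 500, 33.7% to 42.1%), a difference of -2.09 percentage points that did not pass the test (Fisher's exact test, two-sided, p = 0.746). The density on X thus lay between those of 3L and 3R, and that of 2R was the highest of the 5 arms; the densities were not tested.

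Sites on X stood lower in every list than sites on the autosome arms. This comparison of list positions was added after the positions had been seen. Their median relative position was 0.60 in replicate 1, 0.79 in replicate 2 and 0.85 in replicate 3. On 2L, 2R, 3L and 3R together the medians were 0.37, 0.38 and 0.48. The difference was 0.34 ± 0.092 (mean ± SD, n = 3 lists) and had the same direction in 3 of 3 lists (two-sided exact sign-flip permutation test, p = 0.25, the smallest possible). Among the 4 autosome arms taken singly, the highest median in any list was 0.49. The lower place was not particular to promoters, since the other euchromatic sites on X stood 0.38 ± 0.010 lower than those on the autosome arms (mean ± SD, n = 3 lists, exact sign-flip permutation test, p = 0.25).

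The share of sites held by all 3 lists was 22 of 40 on X (55.0%, 95% Wilson interval 39.8% to 69.3%) and 113 of 189 on the autosome arms (59.8%, 52.7% to 66.5%), a difference of -4.79 percentage points that did not pass the test (Fisher's exact test, two-sided, p = 0.599). A relative position of up to 0.5 was reached by 36.8%, 34.5% and 20% of the sites on X that replicates 1, 2 and 3 held. On the autosome arms it was reached by 68.7%, 65.3% and 53.2%. A few sites on X went against this, since sd, Hers and Sec61gamma are among the 12 best placed sites. At the other end stood CG3009 (peak 847, 893 and 709), Dhdds (peak 903, 868 and 716) and mRpL3, each held by all lists at relative positions between 0.736 and 0.989. With the autosome arms alone, euchromatic promoters still stood 0.15 lower than heterochromatic promoters on average over the lists.

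**Figure D4:**
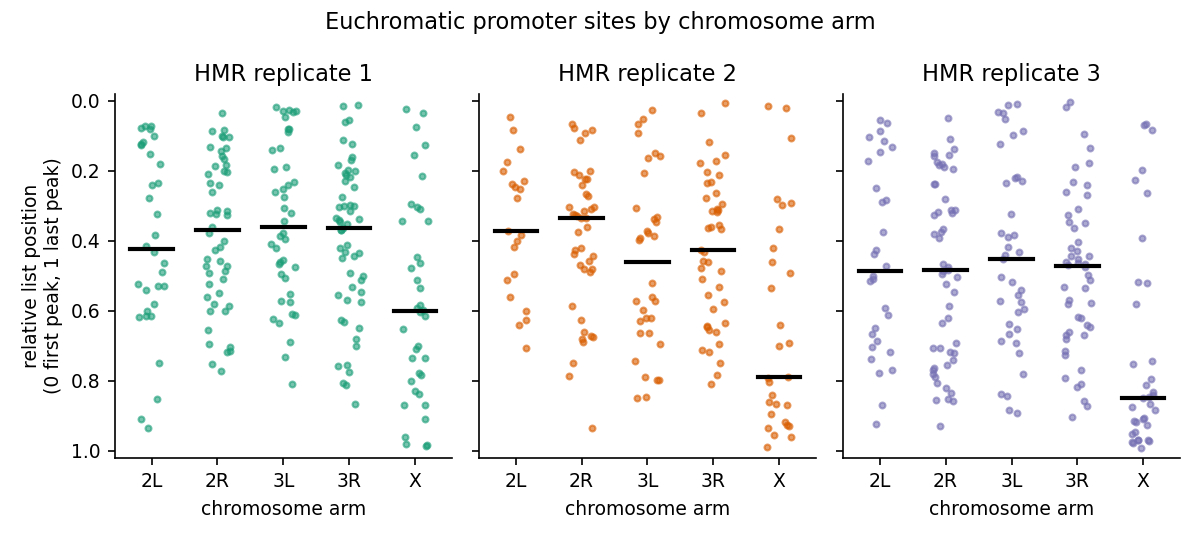
Relative list position (vertical axis, 0 is the first peak and 1 the last) of each euchromatic promoter site by chromosome arm, with 1 panel for each HMR replicate; points are sites, spread sideways at random for visibility, and black lines medians. The medians on X (0.60, 0.79 and 0.85) lie under those of every autosome arm.

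Few of these promoter sites lay near a control IgG peak, and the control lists were short (22 and 242 peaks). The share that would lie near a control peak by position alone was not computed. One of the 229 sites overlapped a control peak and 4 lay within 1 kb of one, against 3 of 383 other euchromatic sites and 3 of 142 heterochromatic promoter sites. The overlapping site is that of CG2059 (X from 7180195 to 7180433), which was peak 1129 of replicate 1 and peak 738 of replicate 3, near the end of both lists, and overlapped a peak of each control list. SsRbeta, a subunit of the signal sequence receptor of the endoplasmic reticulum, lay 160 bp from a control peak (peak 291 and 449 in replicates 1 and 3). Cyp1, a cyclophilin, lay 335 bp away (peak 1045 and 836 in replicates 1 and 2), and the cell surface protein gene Gp150 lay 498 bp away (peak 482 and 617 in replicates 1 and 3). None of these 4 sites was in all 3 HMR lists. Without control IgG replicate 2 the number within 1 kb was 2.

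The euchromatic promoter sites were mostly far from one another. The median distance to the nearest HMR site of any kind was 53.7 kb (middle range from quartile to quartile 18.3 to 122 kb), and to the nearest other euchromatic promoter site 181 kb (51.1 to 351 kb). A further HMR site lay within 2 kb of 8 sites. Among 224 neighbouring pairs on the arms, 18 lay within 20 kb of each other. In 4 of these the same gene had both sites, and in 3 the genes were next to each other in the annotation.

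The genes with 2 sites were Gdap2, Ranbp16, RhoGEF3 and apt. In Gdap2 the sites lay 385 bp apart on 2R from 3613997 to 3614259 (peak 605, 183 and 541) and from 3614645 to 3614848 (peak 359 and 308 in replicates 1 and 3). The sites of Ranbp16 lay 318 bp apart. Those of RhoGEF3 lay 7.86 kb apart, and the second, from 299922 to 300133, was peak 732 and 516 of replicates 1 and 2. In apt, a transcription factor gene, they lay 15.8 kb apart, at peak 152, 78 and 108 (2R from 19468248 to 19468452) and at peak 693 and 668 of replicates 1 and 3 (2R from 19452244 to 19452481). In each of these 4 genes, 1 site was in all 3 lists and the other in 2.

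Neighbouring genes with a site each were CenG1A and CG33307 (6.69 kb apart), NijB and CG3902 (6.44 kb) and CG1142 and alpha-Est10 (16.5 kb). Another 4 promoter sites had an HMR site away from promoters within 2 kb. These were CG17544 with an intergenic site at 316 bp, the integrin gene scb with an intronic site of its own at 791 bp, a site at NM_165906 with one in an intron of Lac at 810 bp, and Tsp42Ed with one in an intron of Tsp42Ee at 1849 bp. The pairs of CG17544 and of NM_165906 and Lac were in all 3 lists on both sides.

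**Figure D5:**
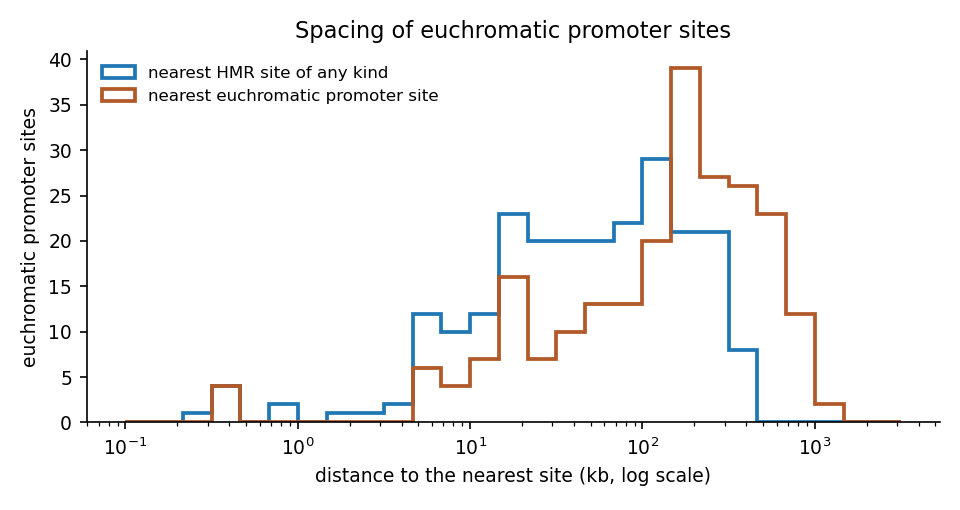
Number of euchromatic promoter sites (vertical axis) by distance to the nearest HMR site of any kind and to the nearest other euchromatic promoter site (horizontal axis, kb, log scale). The medians are 53.7 kb and 181 kb, and a small group lies under 1 kb.

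The limits of the selection fell between the following promoter sites. On 3R the nearest site inside was that of Osi2, 36.0 kb from the limit, at peak 614, 596 and 347, and the nearest outside was smash, 1515 kb beyond at peak 437 and 450 in replicates 2 and 3. On X it was that of Phf7, 227 kb inside at peak 818, 784 and 677, and the nearest outside was RhoGAP19D, 96.0 kb beyond at peak 729 and 713 in replicates 1 and 3. On 2L vari lay 174 kb inside (peak 610, 252 and 398) and Dap160 175 kb outside (peak 611 and 513 in replicates 1 and 2). On 2R Eb1 lay 639 kb inside and mle, the helicase of the dosage compensation complex, 132 kb outside (peak 332 and 587 in replicates 1 and 2). On 3L CG32440 lay 1177 kb inside (peak 354, 562 and 339) and CG33170 327 kb outside (peak 175, 91 and 103). Beside region 31, CG5885 (peak 147, 127 and 105) was kept, and Ripalpha (peak 282, 350 and 229) and Bug22 (peak 673 and 494 in replicates 1 and 2) were left out. The left-out sites named in this paragraph were all class 2, so they count as heterochromatic by position only.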

How the data were processed

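The authors aligned the reads to dm3 with Bowtie2 2.2.6, kept uniquely mapped reads with SAMtools 1.2 and called 200 bp peaks sample by sample with HOMER 4.8, using an input, at a false discovery rate of 0.001, per the file headers and the study's methods. No replicates were pooled. In the deposited lists the score is 1 throughout and was not used. List order was taken as the caller's ranking. It followed the caller's peak numbers on the large arms in replicates 1 and 2 (Spearman's rho at least 0.997), and replicate 3 carries no such numbers. No score per site means that list position is a rank, and its scale depends on the length of each list.

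Samples were grouped by the antibody and number in their labels. Of 29 samples, 5 with a peak list were used. Annotation and class of each site came from the study's own site table, in which all 794 sites matched 1 entry. Symbols and neighbouring genes came from the RefSeq table of Release 6, whose coordinates were not used. An arm ended at its highest peak of any list. Shares were compared by two-sided Fisher's exact tests with 95% Wilson intervals, and list positions by exact sign-flip tests over the 3 lists. The threshold was 0.05 and p-values were not adjusted across comparisons.

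Named sites were the 12 in all lists with the lowest mean position, class 1 sites, sites within 1 kb of a control peak, sites of genes on the lists (other than CG-number and non-coding genes), sites with a neighbour within 2 kb or a gene with 2 sites, and those nearest each limit, of which 1 is not reported here. Other names were chosen after their values were seen. The members and the gene lists were chosen with earlier results of these data known. The scripts were tested on simulated data. The scripts ran with SciPy 1.17.1, statsmodels 0.14.6 and NumPy 2.4.6 under Python 3.11.15, with Matplotlib 3.10.9 for plots.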

Additional observations from a re-analysis of the deposited data

How the results depend on the processing

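The 9 results were recomputed under 45 alternatives in all, and 36 of these kept their direction and side of the threshold, or for counts stayed within 1.5 times. The 229 sites became 135 when all 3 lists were asked for, 110 when only the upper part of each list (relative position up to 0.5) was taken, and between 147 and 194 when 1 replicate was left out. With the upper part of each list, the share in all 3 lists differed from that of heterochromatic promoters by -10.5 percentage points and no longer passed (Fisher's exact test, two-sided, p = 0.111). There were fewer sites in this test. The difference in list position from the other euchromatic sites turned to -0.014 with a proximal window of 1 Mb and ranged from -0.023 to 0.024 when 1 replicate was left out, and no version passed. The 4 sites within 1 kb of a control peak became 1 for overlap and 8 within 5 kb, and between 2 and 4 when 1 control replicate was left out. The comparisons of list positions between X and the autosome arms and with heterochromatic promoters, the use of autosomal sites alone and the control lists left out in turn were added after seeing the data. The planned searches for sequence motifs and for genes in head-to-head order were not run. No paired analysis was possible because the results are counts and positions of peaks and come from no fit over HMR and control IgG samples. The tag limit differed between libraries, and how far depth shaped the lists was not tested. With 3 lists no sign-flip test can pass the threshold.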
